A study of Macaca mulatta with 64 samples.

Results

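The transcripts of 2 genes, SST (ENSMMUG00000000850) and CHGA (ENSMMUG00000009971), were followed across the brain of the rhesus macaque by CAGE-seq, a sequencing assay that reads the 5′ ends of RNA. They were taken by name, with every start position listed for them, from a table of 13269 genes and 160389 positions. SST had 19 positions and CHGA had 114. Positions are called transcript clusters (TCs), and the level of a gene is the sum over its TCs in TPM, here tags per 1000000 tags in a library, not corrected for gene length.

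The 64 libraries came from 8 regions. The hippocampus was sampled as CA1 and the dentate gyrus (DG), the neocortex as the prefrontal (PFC), posterior cingulate (PCC), temporal (TC), parietal (PC) and occipital (OC) cortex, and the cerebellum as its cortex (CB). Each region had 8 libraries, 1 for females and 1 for males of 1, 4, 10 and 20 yr. The animals carried no named allele or treatment. Each combination of age and sex is called an animal group here. The supplemental methods describe all regions as taken from the same specimens, and the paper describes its RNA-seq libraries as pools of a pair of animals of like age and sex. Every combination of region and animal group had a single library, so the spread within a combination could not be measured. The p-values for age and sex rest on the spread between animal groups. Those for regions rest on how far regional differences vary over animal groups, with the noise of single libraries included. In limma they also take in the CB libraries, where both genes were at 0.

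SST encodes somatostatin, a peptide that is cut from a longer precursor and released by a class of inhibitory interneurons of the neocortex and hippocampus, where it acts on dendrites of nearby cells through receptors coupled to inhibitory G proteins. CHGA encodes chromogranin A, an acidic protein of the granin family that is packed into dense-core vesicles of neurons and endocrine cells together with peptide hormones, and that is itself cut into peptides. Transcription of SST is a textbook target of CREB, the factor activated by cyclic AMP.

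The libraries differed in depth. They listed between 545 and 8143 genes, with a median of 2517.5, and the smallest value above 0 was between 1.0 and 1.32 TPM, so a value of 0 means that a gene was not listed and not that it was silent. CA1 libraries listed a median of 5473.5 genes, against 1253.5 in PCC and 2028.5 in CB. Outside CB, SST was likewise highest in CA1 and lowest in PCC on the log2 scale. For CHGA the order of CA1 and PCC depended on the measure. Its median was 135.925 TPM in CA1 and 546.755 TPM in PCC. Its mean log2(TPM + 1) was 6.81 in CA1 and 6.55 in PCC. The part of gene numbers in the regional values was not tested except by a fit with the log2 number of genes as a covariate. The labels were checked against marker genes. The 11 listed markers of cerebellar granule and Purkinje cells summed to 2463 to 4189 TPM in CB, against 0 to 615 TPM in the hippocampus and 0 to 771 TPM in the neocortex. CBLN1 and CBLN3, both made by cerebellar granule cells, were above 0 in all 8 CB libraries. Other members of that list were less particular to CB. PVALB was above 0 in 3 of 8 CB libraries and CALB1 in 38 of 56 libraries outside CB. Of the 7 that could be tested, 2 were called higher in the hippocampus than in the neocortex. Of the 2 dentate granule cell markers, PROX1 was above 0 in 1 and C1QL2 in 40 of 56 libraries outside CB. Only C1QL2 could be tested, and in limma it was −0.47 in CA1 minus DG without being called. The DG label was therefore not settled by these markers. Of the GABAergic markers, GAD1 was above 0 in 16 and GAD2 in 11 of the 56 libraries, and summed GABAergic markers had a median of 14.2 TPM in the hippocampus, 8.13 TPM in the neocortex and 0 TPM in CB.

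SST lies on chromosome 2 of the MMUL 1.0 build, from 180010080 to 180011458 on the minus strand, a span of 1379 nt, and no other listed gene lay within 2000 nt of it. Its tags began at a few places close to the annotated start. The position with the most tags was 180011546, which is 88 nt upstream of the annotated start, with 6357.77 TPM summed over 27 libraries. The position 86 nt upstream added 2421.68 TPM from 10 libraries. Joined over gaps of less than 20 nt, the 8 positions 89 to 54 nt upstream held 73.3% of all SST tags and were listed in 44 libraries. A single position 155 nt inside the gene held a further 22.8%, with 3218.09 TPM over 34 libraries. The annotated start itself and the positions up to 23 nt inside held 0.965%. Exons and introns are not given with these positions and were not looked up.

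CHGA lies on chromosome 7, from 156117551 to 156129641 on the plus strand, a span of 12091 nt. The 1 other listed gene within 2000 nt was ITPK1 on the opposite strand. CHGA tags were spread over more places than those of most genes, since 99.6% of all listed genes had fewer positions and the median gene had 6. The annotated start was used, with 592.26 TPM in 23 libraries, but the positions within 500 nt of it held only 5.76% of CHGA tags, against 53.7% of the tags of all genes. Between 60 and 80% of the length of the gene lay 86 positions with 90.8% of its tags. The highest was 8161 nt inside the gene, with 4180.57 TPM over 26 libraries. It belonged to a joined group of 21 positions from 8027 to 8211 nt that held 38.0% of the tags, and a group of 20 positions from 9287 to 9391 nt held 24.8%. Most positions were rarely seen, with 69 of the 114 listed in 1 library only and 3 in at least 8. Whether the interior positions are starts of capped RNA was not tested. For CHGA, a level here is therefore mostly a level of these interior positions.

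**Figure D1:**
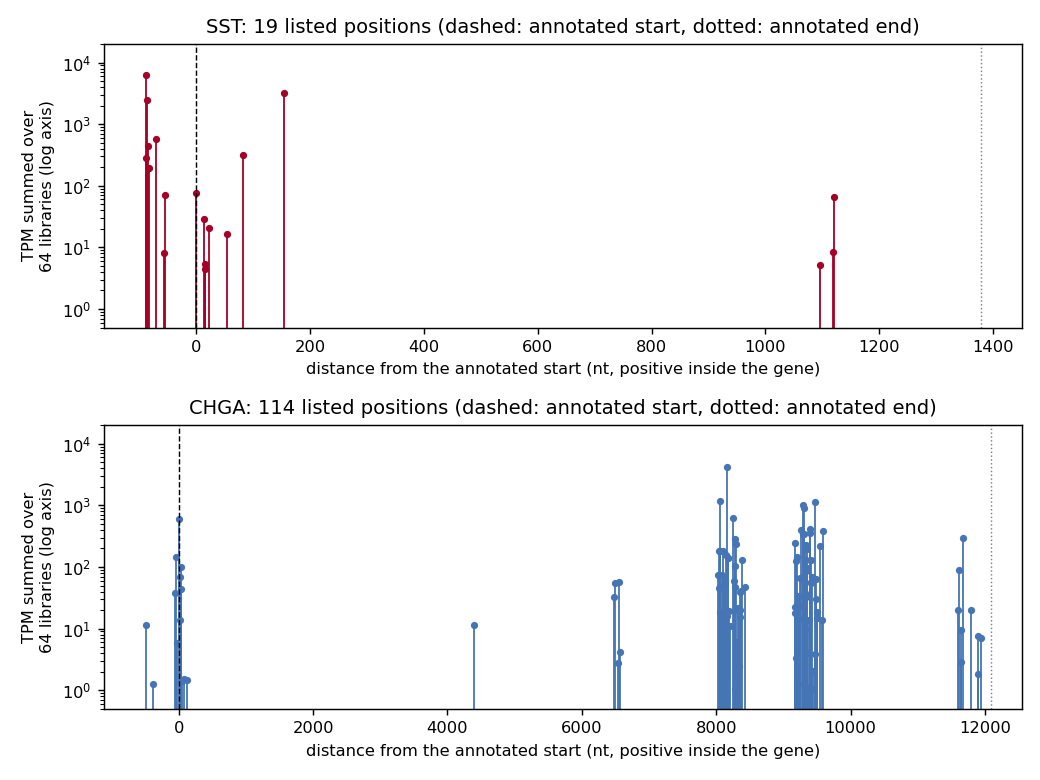
TPM summed over 64 libraries (log axis) at each listed position of SST (top) and CHGA (bottom), by distance from the annotated start in nt. SST tags stand at 89 to 54 nt upstream and 155 nt inside, while CHGA tags stand mostly between 60 and 80% of its length.

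SST and CHGA were not listed in any cerebellar library. SST was above 0 in 48 of 56 libraries outside CB and in 0 of 8 CB libraries. CHGA was above 0 in 53 of 56 libraries outside CB and likewise in 0 of 8 CB libraries. This pattern was rare, since of 494 genes listed in at least as many libraries outside CB as SST, 5 (1.01%) were at 0 in every CB library, and of 232 genes listed as often as CHGA, 2 (0.862%) were. The 5 include SST and CHGA themselves, and the 2 include CHGA. The median gene of the 494, and likewise of the 232, was above 0 in 7 CB libraries. The other genes named in the table with the pattern were NRGN, a postsynaptic calmodulin-binding protein of forebrain neurons, and CXCL14, a chemokine of some interneurons. Since the absence of SST and CHGA in CB was part of how they were taken, it is described here and not tested, and no fold is given against a region at 0. In bulk tissue, fewer cells of a type and less RNA per cell cannot be told apart. After leaving out the 6 libraries that listed fewer than 1000 genes, a limit set after the data were seen, SST was above 0 in 46 of 51 libraries outside CB, CHGA in 49 of 51, and both in 0 of 7 in CB.

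The libraries without SST outside CB were PFC of males and females of 20 yr, PCC of males of 1 yr, males and females of 10 yr and females of 20 yr, PC of females of 20 yr, and OC of males of 4 yr. They listed 617 to 2936 genes, with a median of 1253.5, against a median of 2548 genes for all libraries outside CB. CHGA was at 0 outside CB only in PCC of males of 10 and 20 yr and in PC of females of 20 yr, which listed 859 to 1412 genes. Both genes were above 0 in 47 of the 56 libraries, SST alone in 1, CHGA alone in 6 and neither in 2.

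SST was listed in every hippocampal library. In CA1 its level ran from 170.23 to 1035.45 TPM with a median of 325.32 (415 ± 301 TPM, SD, n = 8). In DG it ran from 59.18 to 488.16 TPM with a median of 200.91 (219.5 ± 160 TPM, n = 8). Neocortical libraries spread more widely, and in 4 of the 5 neocortical regions at least 1 library had no SST. In TC, the exception, SST ran from 2.56 to 450.71 TPM with a median of 257.805 (252 ± 154 TPM, n = 8). In PC it ran from 0 to 1550.71 TPM with a median of 269.685 (433 ± 508 TPM, n = 8), and the highest value of the series was that of PC in males of 20 yr. In OC it ran from 0 to 438.63 TPM with a median of 230.31 (241 ± 159 TPM, n = 8). In PFC the median was 76.22 TPM between 0 and 423.95 (118 ± 143 TPM, n = 8). PCC was the lowest, with 4 of 8 libraries above 0, a median of 3.065 TPM and a highest value of 453.03 TPM (88.0 ± 165 TPM, n = 8).

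CHGA took another order. PFC was the highest on the log2 scale, from 124.5 to 1039.41 TPM with a median of 540.2 (557 ± 339 TPM, SD, n = 8). OC followed, from 167.08 to 769.95 TPM with a median of 308.345 (374 ± 201 TPM, n = 8). DG held 1.83 to 531.59 TPM with a median of 356.72 (301 ± 197 TPM, n = 8) and CA1 50.44 to 225.97 TPM with a median of 135.925 (127 ± 64.3 TPM, n = 8). CHGA was above 0 in all libraries of these 4 regions. PCC held both the highest value of the series, 2141.46 TPM in females of 20 yr, and 2 libraries at 0 (607 ± 721 TPM, n = 8). TC ran from 1.04 to 269.53 TPM (143 ± 94.4 TPM, n = 8) and PC from 0 to 228.17 TPM (119 ± 92.5 TPM, n = 8), the lowest on the log2 scale.

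**Figure D2:**
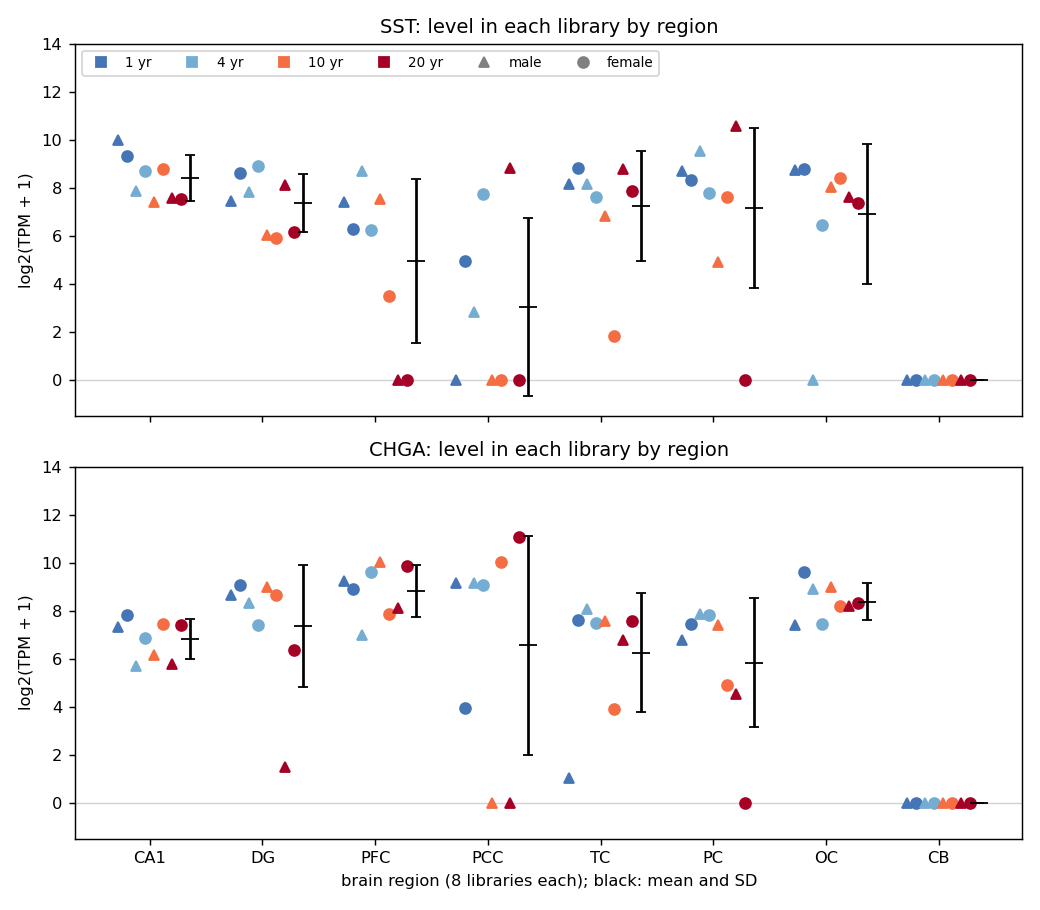
SST (top) and CHGA (bottom) as log2(TPM + 1) in each of the 8 libraries of a region, coloured by age, with males as triangles and females as circles, and the mean and SD in black. SST is above 0 in all 16 hippocampal libraries, and both genes are at 0 in all 8 CB libraries.

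The order of mean log2(TPM + 1) for SST was CA1 (8.41), DG (7.39), TC (7.26), PC (7.18), OC (6.93), PFC (4.97) and PCC (3.05). For CHGA it was PFC (8.82), OC (8.38), DG (7.36), CA1 (6.81), PCC (6.55), TC (6.25) and PC (5.84). None of the 12 pairs of neighbours in these orders differed beyond the spread between animal groups, by an exact two-sided sign-flip test over the 8 groups adjusted over the 12 pairs. The adjusted p was 0.75 for SST in CA1 against DG, where CA1 was higher in 6 of 8 groups, and 0.914 for the other 11. The smallest p that the test can give is 0.00781. Between the ends of the order, SST in CA1 exceeded PCC by 5.36 on the log2 scale and in 7 of 8 animal groups.

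SST differed among the 7 regions outside CB as a whole. In a model of all libraries with region and animal group as terms, limma gave F = 4.65 for SST, with an adjusted p of 0.0079 over the 6106 genes tested, a call that 1453 genes (23.8%) shared. For CHGA, F was 1.90 with an adjusted p of 0.202. The model took in the 8 CB libraries, all at 0 for both genes, in its estimate of spread. The limma p-values of SST and CHGA between regions, here and below, may therefore be too small. No such fit without CB was run. The SST call was lost when 1-yr-old males were left out (adjusted p = 0.0534) and when the log2 number of genes in the library was a covariate (adjusted p = 0.304).

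On the mean of log2(TPM + 1), the hippocampus as a whole held more SST than the neocortex in every animal group. The difference just missed the threshold. The mean log2(TPM + 1) of SST was 7.90 ± 1.17 in the 16 hippocampal libraries and 5.88 ± 3.44 in the 40 neocortical ones (SD). In females of 10 yr the hippocampus stood at 7.35 against 4.28 in the neocortex, and in females of 20 yr at 6.85 against 3.04. In males of 20 yr the gap was narrowest, 7.86 in the hippocampus against 7.17 in the neocortex. The direction depended on the scale, since in mean TPM the neocortex was the higher in males of 4, 10 and 20 yr. Over all libraries SST averaged 317 ± 254 TPM in the hippocampus and 226 ± 281 TPM in the neocortex (SD). The difference in limma was 2.02 ± 0.71 (SE, unadjusted p = 0.006, adjusted p = 0.0621), while the median of all genes tested was 0.55. On the log2(TPM + 1) scale the hippocampus was higher in 8 of 8 animal groups, as it was for 190 of 6106 genes (3.11%).

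Of all genes, 500 (8.19%) were called between hippocampus and neocortex, and 487 (7.98%) were called higher in the hippocampus, whose libraries listed a median of 3851.5 genes against 2517.5 in the neocortex. SST passed the threshold with nuclear genes rescaled to a common total (adjusted p = 0.0435), with the highest TC alone (0.0401), with TCs within 500 nt of the start (0.0499) and without 20-yr-old males (0.0392). It did not pass with quantile normalization (1.80, adjusted p = 0.155), without libraries listing fewer than 1000 genes (1.51, 0.192) or with the number of genes as a covariate (1.21, 0.524), where the median of all genes was 0.03, 0.47 and 0.04. All 4 tested oligodendrocyte markers (MBP, MOG, CNP, MOBP), 2 of 6 astrocyte markers (GFAP, ALDH1L1) and 2 of 4 glutamatergic neuron markers (NEUROD6, CAMK2A) were called higher in the hippocampus, and 0 of 4 GABAergic ones. Oligodendrocyte markers summed to 736 to 8185 TPM there, against 49.2 to 7569 TPM in the neocortex, and the part of cell mixture in the SST values was not tested.

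CHGA showed no such direction. Its mean log2(TPM + 1) was 7.09 ± 1.84 in the hippocampus and 7.17 ± 2.81 in the neocortex (SD, 16 and 40 libraries), a difference of −0.08 ± 0.67 in limma (SE, adjusted p = 0.959). The hippocampus was higher in 4 of 8 animal groups, with differences between −1.87 and 1.25. In TPM, CHGA averaged 214 ± 168 in the hippocampus and 360 ± 408 in the neocortex (SD).

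Neither gene passed the test between CA1 and DG in the sum over all positions. SST was 1.02 ± 1.20 higher in CA1 (SE, adjusted p = 0.566) and CHGA differed by −0.55 ± 1.14 (adjusted p = 0.759), while 1182 genes (19.4%) were called and the median of all genes was 1.37. For CHGA the choice of positions turned the direction. Within 500 nt of its annotated start, CHGA was above 0 in 8 of 8 CA1 libraries, from 3.0 to 72.33 TPM with a median of 17.8 TPM. In DG it was above 0 there in 4 of 8 libraries, from 0 to 52.02 TPM with a median of 0.5 TPM. That difference was 2.78 with an adjusted p of 0.0397 in limma on TCs within 500 nt of the start, beside a median of 1.41 for all genes. This was 1 of several alternative settings, and the main one called 18.5% of all genes higher in CA1. Libraries of CA1 listed a median of 5473.5 genes against 2219.5 in DG, and the DG median of 0.5 TPM lies below the smallest listed value. The part of depth in this difference was not tested. DG libraries nevertheless held more CHGA in total in 6 of 8 animal groups, so the rest came from interior positions.

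The place where SST tags began also varied between libraries. In all 8 CA1 libraries the cluster 89 to 54 nt upstream held most of the SST tags, with shares of 74.6 to 100% and a median of 94.0%. The median was as high in OC (98.9%) and DG (97.5%), where single libraries went down to 35.5% and 0%. In PC the same share ran from 16.9 to 100% with a median of 53.9%, and in TC from 0 to 100% with a median of 58.6%. The library with the most SST, PC in males of 20 yr, had 77.7% of its SST tags at the position 155 nt inside and 22.3% upstream. In CA1 of males of 1 yr, the next highest of the series, all 1035.45 TPM stood at the position 86 nt upstream. Of the 48 libraries with SST, 12 had tags in the upstream cluster only and 4 at the inner position only. Those 4 were PFC, TC and DG of females of 10 yr, with 10.49, 2.56 and 59.18 TPM, and PCC of males of 4 yr, with 6.13 TPM.

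**Figure D3:**
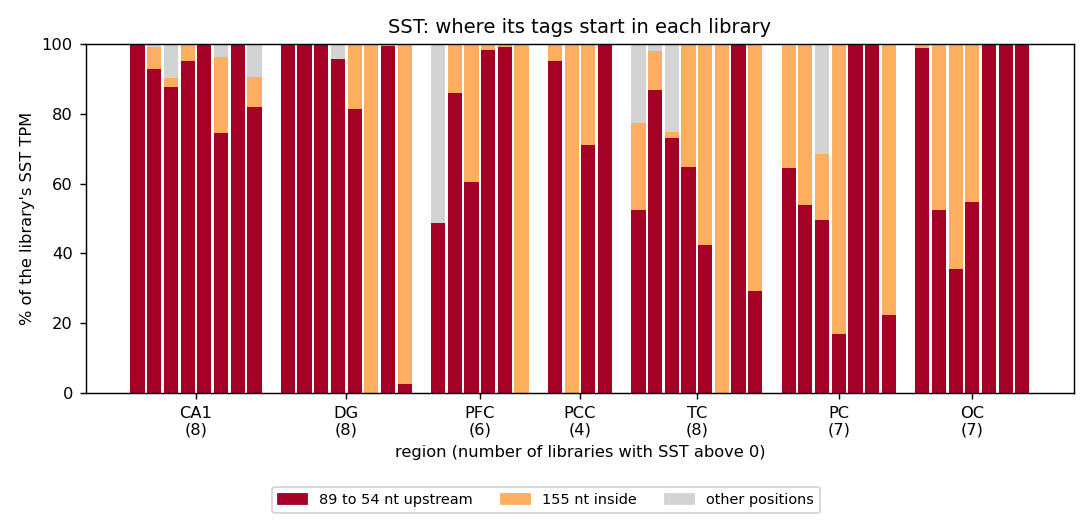
Share of each library's SST tags (%) at 89 to 54 nt upstream of the annotated start, at 155 nt inside and at other positions, for the 48 libraries with SST. Bars within a region run from 1 to 20 yr, males left of females. All 8 CA1 bars are at least 74.6% upstream, while 4 libraries elsewhere are wholly at the inner position.

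The share at the main position of each gene was compared between regions and ages over animal groups, 4 tests in all, and again with neighbouring positions joined. None passed once adjusted over its 4 tests. For SST, the position 88 nt upstream held 49.4 ± 31.2% in the hippocampus and 41.6 ± 14.1% in the neocortex (SD, n = 8 animal groups), a difference within the spread (exact sign-flip p = 0.570, adjusted p = 0.760). With the upstream positions joined, the shares were 82.0 ± 26.2% in the hippocampus and 64.2 ± 12.4% in the neocortex, higher in 6 of 8 groups (exact p = 0.0859, adjusted p = 0.115). By age, the SST position 88 nt upstream held 43.1 ± 13.8% in the 4 animal groups of 10 and 20 yr and 43.6 ± 7.19% in the 4 groups of 1 and 4 yr (exact permutation p = 0.971), and the joined positions 66.4 ± 19.9% and 72.1 ± 8.74% in the same order (exact p = 0.629). For CHGA, the position 8161 nt inside held 8.86 ± 9.99% in the hippocampus and 16.5 ± 9.73% in the neocortex (SD, n = 8 animal groups, exact sign-flip p = 0.141, adjusted p = 0.563). Joined over 8027 to 8211 nt, the shares were 15.9 ± 16.7% in the hippocampus and 32.6 ± 12.6% in the neocortex, higher in the hippocampus in 1 of 8 groups (exact p = 0.0859, adjusted p = 0.115). By age, the position 8161 nt inside held 17.3 ± 7.03% in the 4 animal groups of 10 and 20 yr and 11.1 ± 8.21% in the 4 groups of 1 and 4 yr (exact permutation p = 0.286, adjusted p = 0.571). With those positions joined, it held 34.8 ± 4.73% at 10 and 20 yr and 20.3 ± 2.17% at 1 and 4 yr, with no overlap between the groups. That was the smallest p the exact permutation test can give for 4 groups against 4 (0.0286), and it did not pass once adjusted over the 4 tests (0.114).

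The mean log2(TPM + 1) of SST was lower in the older animals in 6 of 7 regions outside CB, but no age comparison passed the test. The mean TPM was lower in 4 of the 7, and in PC it was 444 TPM at 10 and 20 yr against 422 TPM at 1 and 4 yr, in PCC 113 against 62.8 TPM and in OC 242 against 239 TPM. Averaged over the 8 regions, log2(TPM + 1) of SST was 4.92 ± 1.19 in the 4 animal groups of 10 and 20 yr and 6.38 ± 0.56 in the 4 groups of 1 and 4 yr (SD). The difference was −1.46 ± 0.59 in limma (SE, unadjusted p = 0.0295, adjusted p = 0.474), with a median of −0.30 over all genes. The mean of males and females was 6.60 in 1-yr-old, 6.15 in 4-yr-old, 4.81 in 10-yr-old and 5.03 in 20-yr-old animals. At 20 yr males stood at 6.45, within the range of the younger groups, and females at 3.62, the lowest of all. Each of these is 1 animal group, and a difference of the age effect between sexes was not tested. In the 20-yr-old females SST was at 0 in PFC, PCC and PC, whose libraries listed 1654, 707 and 859 genes. Outside CB, SST was above 0 in 22 of 28 libraries at 10 and 20 yr and in 26 of 28 at 1 and 4 yr.

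No gene at all (0.0% of 6106) was called for age in limma, either between 10 and 20 yr and 1 and 4 yr, where 585 genes had an unadjusted p under 0.05, or among the 4 ages, where 373 did. The F over the 4 ages was 1.80 for SST (adjusted p = 0.886) and 1.90 for CHGA (adjusted p = 0.881). Of the 6 libraries with fewer than 1000 genes, 5 were from animals of 10 and 20 yr. Without those 6, and with each mean taken over the regions left, the SST difference was −0.67 (adjusted p = 0.832).

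CHGA averaged 5.80 ± 0.97 in the groups of 10 and 20 yr and 6.70 ± 0.35 in those of 1 and 4 yr (SD of log2(TPM + 1) over 8 regions, n = 4 animal groups each). In TPM over the 7 regions outside CB the order was the other way, with 330 ± 181 TPM at 10 and 20 yr and 306 ± 24.97 TPM at 1 and 4 yr (SD, n = 4 animal groups each). The log2 difference was −0.90 ± 0.48 in limma (SE, unadjusted p = 0.0865, adjusted p = 0.58). Males of 20 yr alone stood low, at 4.36, while the other 7 groups lay between 6.14 and 6.96. Without that group the difference was −0.47, and without the 6 libraries with few genes it was −0.49.

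**Figure D4:**
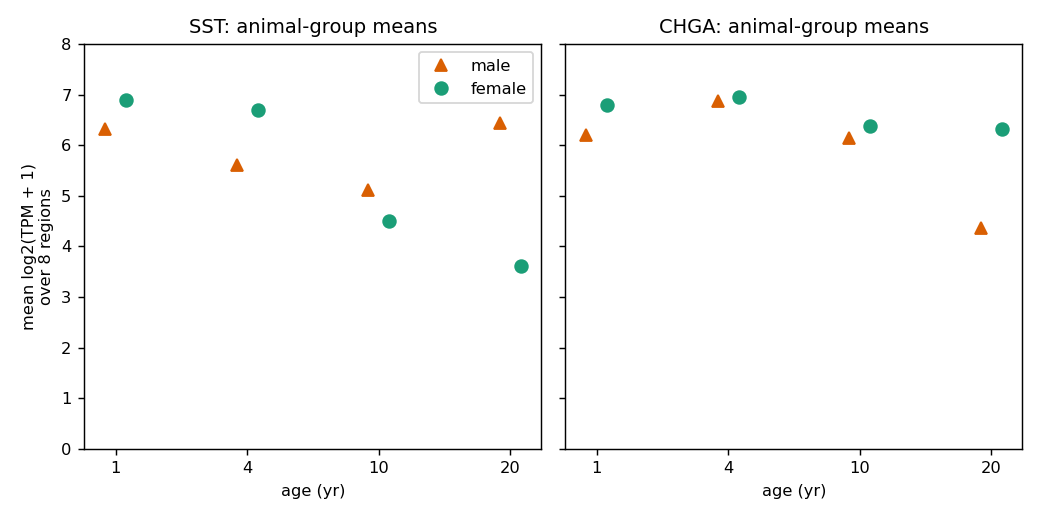
Mean log2(TPM + 1) over the 8 regions of SST (left) and CHGA (right) in each animal group by age in yr, males as triangles and females as circles. For SST the 20-yr males (6.45) lie with the young groups and the 20-yr females (3.62) lowest, and for CHGA the 20-yr males (4.36) stand below all others.

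Within single regions the same comparison was made over 8 libraries. SST in PFC had the largest difference. At 10 and 20 yr PFC held 186.99, 10.49, 0 and 0 TPM (males and females of 10 yr, then of 20 yr), against 168.8, 77.09, 423.95 and 75.35 TPM at 1 and 4 yr (males and females of 1 yr, then of 4 yr). The groups overlapped by the males of 10 yr. The difference was −4.40 ± 1.67 on the log2 scale in limma (SE, unadjusted p = 0.027, adjusted p = 0.545), with a median of −0.87 for all genes in PFC.

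In DG, SST held 65.33, 59.18, 279.61 and 70.21 TPM at 10 and 20 yr in the same order, against 177.25, 391.9, 224.57 and 488.16 TPM at 1 and 4 yr, so that only males of 20 yr reached the younger values (−1.65 ± 1.05, SE). In CA1, SST held 170.23, 438.65, 191.44 and 186.09 TPM at 10 and 20 yr, against 1035.45, 645.3, 232.72 and 417.92 TPM at 1 and 4 yr, where females of 10 yr overlapped (−1.15 ± 0.91). In PC, SST held 29.31, 194.86, 1550.71 and 0 TPM at 10 and 20 yr, against 412.7, 319.17, 737.57 and 220.2 TPM at 1 and 4 yr, so the oldest animals spanned the whole range (−2.80 ± 1.91). The differences in TC and PCC were −1.85 ± 1.51 and −1.68 ± 2.55. OC ran the other way (1.87 ± 1.85), through a library at 0 in 4-yr-old males.

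CHGA differed most in PC, where it held 166.8, 28.98, 22.29 and 0 TPM at 10 and 20 yr, against 108.69, 173.26, 228.17 and 223.85 TPM at 1 and 4 yr (males before females at each age; −3.26 ± 1.49, SE, unadjusted p = 0.0564 in limma). The groups overlapped by males of 10 yr. PCC (−2.56 ± 2.67) and DG (−1.98 ± 1.70) had wide errors, and PFC (0.29 ± 1.10), TC (0.41 ± 1.78), OC (0.09 ± 1.02) and CA1 (−0.21 ± 0.87) lay within 1 SE of 0. Neither gene passed the threshold in any of the 7 regions in limma. Nor did any other gene (0.0%) outside PCC, where 3 of 3664 (0.0819%) were called, although 212 to 460 genes of a region had an unadjusted p under 0.05.

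**Figure D5:**
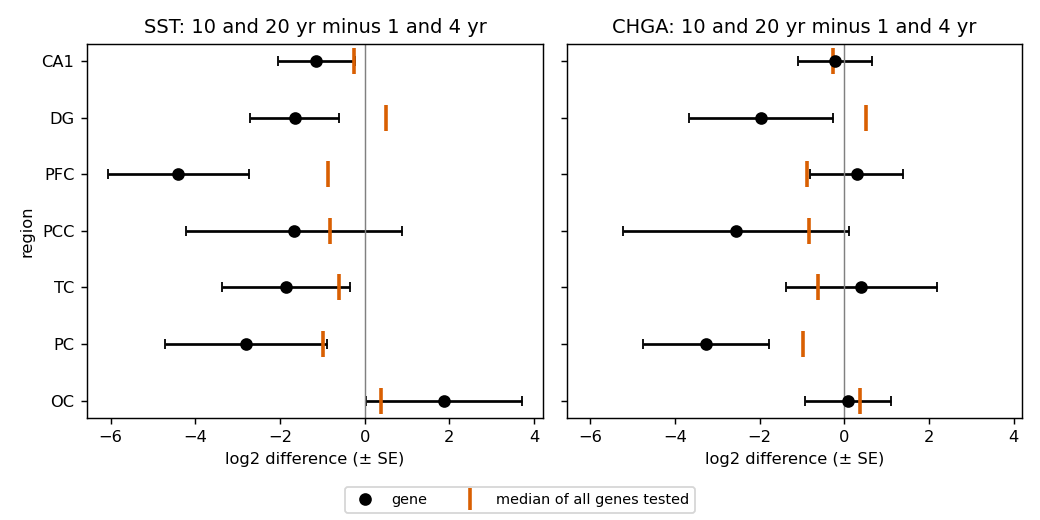
Log2 difference of 10 and 20 yr from 1 and 4 yr (± SE) for SST (left) and CHGA (right) in each of the 7 regions outside CB, with the median of all genes tested as an orange mark. SST lies below 0 in 6 of 7 regions and above it in OC, none past the threshold.

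The age difference was not shown to vary between hippocampus and neocortex. Its value in the hippocampus minus that in the neocortex was 0.37 ± 0.99 for SST (SE, adjusted p = 0.967 in limma) and −0.09 ± 1.09 for CHGA (adjusted p = 0.995). No gene was called (0.0%), and 451 had an unadjusted p under 0.05. Neither gene passed the test between the sexes. Over the 8 regions SST averaged 5.87 ± 0.63 in males and 5.43 ± 1.62 in females (SD of log2(TPM + 1), n = 4 animal groups each), a difference of 0.45 ± 0.65 in limma (SE, adjusted p = 0.977). CHGA averaged 5.89 ± 1.07 in males and 6.61 ± 0.31 in females, a difference of −0.72 ± 0.48 (SE, adjusted p = 0.96). No gene was called between the sexes (0.0%), with 321 at an unadjusted p under 0.05 in limma. Without females of 20 yr, the SST difference turned to −0.35.

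No relation between SST and CHGA was detected. Over the 56 libraries outside CB with region means subtracted, Pearson's r of log2(TPM + 1) was 0.02 (permutation p = 0.906) and Spearman's rho was −0.04 (p = 0.807, permuted within regions). Without the 2 libraries farthest from the median of SST, r was −0.12. Within single regions r ran from −0.37 in PCC to 0.68 in PC (n = 8 each, exact permutation p = 0.366 and 0.0974), and CA1 had 0.65 (exact p = 0.089). None of the 8 relations, of which the last was over the animal-group means (r = −0.06, rho = 0.26), passed once adjusted over them, the lowest adjusted p being 0.39 for r and 0.865 for rho.

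The genes most like SST by the same measure, Pearson's r over 56 libraries with region means subtracted, were TESPA1 (0.63), ITGA1 (0.63), YAF2 (0.60), SERPINI1 (0.60) and CYB5A (0.58). Without the subtraction their r was 0.31, 0.65, 0.66, 0.49 and 0.57. SERPINI1 encodes neuroserpin, a protease inhibitor secreted by neurons, and ITGA1 an integrin subunit. The genes most like CHGA were ZMIZ2 (0.55), CUTA (0.48), FLYWCH1 (0.48), IRF3 (0.47) and PTMA (0.46), with 0.40, 0.38, 0.49, 0.47 and 0.42 without the subtraction. They were the highest of 1949 genes compared, whose median r was 0.15 with SST and 0.07 with CHGA. The points share their libraries and hence their depth, and the values are descriptions.

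Other interneuron and peptide genes were listed in fewer libraries than SST. CRH, the corticotropin-releasing peptide of some interneurons, came closest, above 0 in 43 of 56 libraries outside CB, and the other 19 listed genes of the list were above 0 in 1 to 22. Of 27 in the list, 15 could be tested, and 10 of these were at 0 in every CB library, as were 21.3% of all genes tested. CRH was among them. NPY, a peptide found in part of the somatostatin neurons, was above 0 in 9 of 16 hippocampal libraries (23.0 ± 34.1 TPM, SD) and in 3 of 40 neocortical ones (1.57 ± 7.01 TPM), and was called higher in the hippocampus (2.31 ± 0.51, SE, adjusted p = 0.0023 in limma). ELFN1, a postsynaptic protein that in mice sets the properties of synapses onto somatostatin interneurons, was above 0 in 7 of 16 and 3 of 40 libraries and was also called higher in the hippocampus (1.45 ± 0.40, adjusted p = 0.0176). Those 2 were the only calls among the 15 tested genes of the list, beside 8.19% of all genes tested. Both were at 0 in CB and reached the filter of 1 TPM in 8 libraries only through the hippocampus. Their calls are therefore given as descriptions. The median of the list was −0.15 against 0.55 for all genes. The interneuron markers CCK (0.95, adjusted p = 0.416), VIP (−0.36, 0.631) and PVALB (−0.52, 0.549) did not pass, nor did GAD1 (−0.19, 0.887) and GAD2 (0.71, 0.56), which make GABA. VIP was above 0 in 9 and PVALB in 6 of the 56 libraries outside CB.

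Of the 5 other granin genes named here, only SCG2 was at 0 in every CB library as CHGA was, and SCG2 was above 0 in 20 of 56 libraries outside CB. CHGB, the other chromogranin, was above 0 in all 8 CB libraries, from 834 to 3486 TPM (2015 ± 1103 TPM, SD, n = 8), against 319 ± 281 TPM in the hippocampus and 383 ± 367 TPM in the neocortex. SCG5, a chaperone of the prohormone convertase PCSK2, was above 0 in 6 CB libraries, and SCG3 and VGF in 4 each. Of 27 genes of granins, vesicle cargo and prohormone processing, 20 could be tested and 6 of these were at 0 in every CB library, beside the 21.3% of all genes tested. PTPRN2, a membrane protein of dense-core vesicles, was the 1 call of these 20 between hippocampus and neocortex, beside 8.19% of all genes tested. It held 14.9 ± 15.3 TPM in the hippocampus, above 0 in 8 of 8 CA1 and 1 of 8 DG libraries, and 3.89 ± 13.3 TPM in the neocortex. The difference was 1.92 ± 0.44 (SE, adjusted p = 0.0035 in limma), and the median of the list was 0.23. PTPRN2 was above 0 in 7 neocortical and 0 CB libraries. It too reached the filter of 8 libraries only with its hippocampal ones. VGF was lower in the hippocampus without passing (−1.93 ± 0.74, adjusted p = 0.093). CHGB (0.62, adjusted p = 0.678), SCG2 (−0.35, 0.809), SCG3 (1.50, 0.269) and SCG5 (−0.44, 0.696) did not pass. Between CA1 and DG, 4 of the 20 genes were called higher in CA1, near the share of all genes tested (18.5%), among them PTPRN2 (3.90 ± 0.75, adjusted p = 0.0002) and the convertase gene PCSK2 (3.80 ± 0.94, adjusted p = 0.0034), beside the median of 1.37 for all genes.

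For age, no gene of either list was called. CHGB differed by −1.90 ± 0.48 between 10 and 20 yr and 1 and 4 yr (SE, unadjusted p = 0.0019, adjusted p = 0.208 in limma), SCG3 by −1.79 ± 0.63 (adjusted p = 0.383) and CRH by −1.83 ± 0.70 (adjusted p = 0.421). The medians were −0.41 for the granin and vesicle list and −0.36 for the interneuron list, against −0.30 for all genes.

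None of the somatostatin receptor symbols in the list matched a gene of the table used here. Of the 25 genes of receptors and their signalling, 14 were tested. RGS4, which shortens signalling by inhibitory G proteins, was called lower in the hippocampus (−2.04 ± 0.68, SE, adjusted p = 0.0499 in limma), at 5.53 ± 13.9 TPM there against 56.8 ± 94.2 TPM in the neocortex. It was the 1 call of these 14 between hippocampus and neocortex, beside 8.19% of all genes tested. RGS4 was above 0 in 21 of 40 neocortical, 4 of 16 hippocampal and 1 of 8 CB libraries. It reached the filter of 8 libraries only with its neocortical ones. Of 19 CREB-family regulators 9 were tested and none was called between hippocampus and neocortex (median 0.61). CREM, a CREB relative, was the 1 of these 9 called higher in CA1 than in DG (4.01 ± 0.99, SE, adjusted p = 0.0034 in limma). Of the 14 tested signalling genes, 3 were called higher in CA1. Among all genes tested 18.5% were, and their median difference was 1.37.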

How the data were processed

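Per the labels and the paper, the authors made CAGE-seq libraries from poly(A) RNA treated with a 5′-phosphate-dependent exonuclease, aligned first reads with TopHat2 to MMUL 1.0, joined 5′ ends less than 20 nt apart into TCs in each library, and linked them to genes. The values they deposited as TPM are RPM values scaled by the authors to the tags of the library. Columns without a sample numbered 0. Members and gene lists were chosen with earlier results of these data known.

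TCs were summed per gene. The 6106 genes that reached 1 TPM in 8 or more libraries entered limma 3.58.1 (R 4.3.3) as log2(TPM + 1) values, two-sided, with Benjamini-Hochberg adjustment over all genes tested and calls under 0.05. Regions were compared in 1 model of 64 libraries with region and animal group as terms. The age and sex contrasts used 8 animal-group means, and folds are on the log2(TPM + 1) scale, which understates changes of low genes. Those means include CB, at 0 for SST and CHGA in every animal group, which draws the differences of both genes toward 0. Exact sign-flip and permutation tests ran in Python 3.11.15 with SciPy 1.17.1, with 100000 resamples for 56 libraries. limma was tested on simulated data. Alternatives were another pseudocount, no filter, 2 other scalings, 2 other gene values, the number of genes as covariate, no block, other means and leaving out libraries or animal groups.

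Named genes are list members called between hippocampus and neocortex or for age, up to 6 a list, and a set named whatever their values (CHGB, SCG2, SCG3, SCG5, VGF, NPY, CCK, VIP, PVALB, GAD1, GAD2), and the 5 genes most correlated with each of SST and CHGA. NRGN, CXCL14, ITPK1, CRH, PCSK2 and CREM, and the PTPRN2 value between CA1 and DG, were added after their values were seen. Cell type markers were named outside this rule. Pairing by animal group was checked: deviations from region means correlated by 0.011 within an animal group and −0.0016 between groups, and the block stays since the regions came from the same specimens. The depth per library in tags is not given in the values, so no counting interval is given. Sequences of the genes and their starts were not used here.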

Additional observations from a re-analysis of the deposited data

Results flagged for a closer look

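Of 22 groups of 4 or 8 values examined for a value far from the rest, 2 stood out. The cut-offs flag about 1 in 20 groups of independent, normally distributed values. The rate for these groups, which are skewed and in part share values, was not computed. SST in PFC of 4-yr-old males was 423.95 TPM, and the next of the 8 libraries was 186.99 TPM. CHGA in 20-yr-old males averaged 4.36 on the log2(TPM + 1) scale over the 8 regions, and the next of the 4 animal groups of 10 and 20 yr was 6.14.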

How the results depend on the processing

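Across the alternatives listed for these results, 565 recomputed values kept their direction and side of the threshold or their size, 47 turned direction, 19 moved, 4 gained and 2 lost a call. Values that turned direction count only as turned, even where they gained a call. CHGA did so in CA1 minus DG with TCs within 500 nt of the start. Of the values added after the data were seen, 16 were kept, 2 moved and 2 turned. SST in the hippocampus minus the neocortex stayed above 0 under all of them, between 1.76 and 2.21 with each animal group left out, and passed the threshold at 2.31 with nuclear genes rescaled to a common total, at 2.03 with TCs within 500 nt of the start and at 2.19 with the highest TC. The F of SST among 7 regions was 2.09 with the number of genes as a covariate and 3.21 to 5.68 with each animal group left out. With that covariate SST turned to −0.72 in CA1 minus DG, to −0.70 in the age difference of hippocampus minus neocortex and to 2.17 for age in PCC. That SST age difference between hippocampus and neocortex was also −0.14 with quantile normalization, −0.069 with the highest TC and −0.068 to 0.78 with each animal group left out. Without the animal-group block, limma gave 2.02 for SST (adjusted p = 0.0787) and F = 4.22 among regions, and the block changed no call. For these results the cause was not tested.

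CHGA, whose values lay near 0, turned more often. In the hippocampus minus the neocortex it was 0.059 with a pseudocount of 0.25 TPM, 0.057 with quantile normalization, 0.10 with nuclear genes rescaled to a common total, 0.87 with TCs within 500 nt, 0.10 without libraries listing fewer than 1000 genes, and −0.27 to 0.17 with each animal group left out. Its age difference between hippocampus and neocortex was 0.12, 0.13 and 0.059 under the first 3 of these, 0.067 without PFC of females of 20 yr and −0.61 to 0.54 with each animal group left out. TCs within 500 nt gave 2.78 in CA1 minus DG, 0.38 for age, 0.39 for male minus female and 2.50 for age in PC, and lowered the share of libraries with CHGA to 57.1%. The age value was −0.0039 in PFC with quantile normalization, and −0.10 in OC and 0.14 in CA1 with the highest TC. With each animal group left out it was −1.45 to 1.59 in TC, −0.27 to 0.59 in OC, −0.48 to 0.17 in CA1 and −0.29 to 0.82 in PFC. SST for age in OC was −0.20 to 3.30 and for male minus female −0.35 to 0.95. The correlation of SST with CHGA was −0.12 without the 2 farthest libraries and −0.085 to 0.22 with each animal group left out. The share of SST at its main position differed by −4.84 to 5.01 percentage points for age and −0.094 to 16.8 for region.

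Counts of called genes moved more than the values of SST. Between hippocampus and neocortex 500 were called, against 755 with no filter, 148 with quantile normalization, 123 with the covariate, 331 without libraries listing fewer than 1000 genes and 243 to 514 with each animal group left out. Between CA1 and DG, 1182 were called, against 1838, 276 and 187 under the first 3 of these and 747 to 1307. Among 7 regions 1453 were called, against 489 with quantile normalization, 952 with TCs within 500 nt, 301 with the covariate and 910 to 1329. For age 1 gene was called on neocortical means, and 0 or 1 with an animal group left out, as for the age difference between hippocampus and neocortex. The median of all genes between hippocampus and neocortex was 0.04 with the covariate and 0.03 with quantile normalization, against 0.55. A test on tag counts (edgeR) was not run, since the values did not return whole tags. A gene is listed only from about 1 TPM, so lower levels could not be seen.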
